A study of Zea mays with 12 samples.

Results

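The 100 maize genes described here are those whose mRNA was lowered most clearly at both 6 and 12 hr of tunicamycin (TM) treatment in seedling roots. They were chosen by their RNA alone. The reads of each gene in the 6 RNAseq libraries were turned into CPM, meaning (count + 0.5) divided by the library's total and multiplied by 1000000, and a gene was kept if its mean at 0 hr was 10 CPM or more. Of the 39498 genes in the count table, 39324 had an identifier starting Zm00001d and 14008 of those passed this level. The lower of a gene's 0 hr values was then divided by the highest value that it had in the 6 and 12 hr libraries, and the 100 genes with the largest quotient, here called the score, are the members. A score above 1 means that every TM-treated RNAseq library lay below both 0 hr libraries. That held for 1619 of the 14008 genes (11.6%), so the members are the upper end of a continuous range. Their footprints were not used in the choice.

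Seedlings of the maize inbred B73 were given 5 µg/ml TM for 6 or 12 hr or were collected at 0 hr, and their roots were assayed for RNA abundance and for ribosome occupancy. Duplicate lysates were made at every time, 6 in all, and from every lysate came an RNAseq library and a ribo-seq library. All groups are of 1 genotype and, per the labels, the same tissue. Mock-treated roots were not analysed here, so TM and time in culture cannot be told apart in any comparison below.

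TM blocks the first step of N-linked glycosylation in the endoplasmic reticulum (ER). Proteins that depend on the sugar for folding then accumulate unfolded, and the cell answers with the unfolded protein response, a programme best known for raising the mRNAs of ER chaperones and folding enzymes. The members stand at the opposite end, among the mRNAs that became scarcer. Ribo-seq sequences the mRNA fragments that ribosomes shield from RNase, called ribosome-protected fragments (RPFs) or footprints. The RPF level of a gene depends both on how much of its mRNA there is and on how densely ribosomes sit on each copy, which makes the footprints a second readout of the same roots.

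Names, gene products and positions of the members were not analysed here, because the annotation used pairs none of these identifiers with a symbol. For the same reason the labelled tissue could not be checked against root markers. Members are given by their rank in the score, and an identifier is printed for the highest ranks alone. RNA and RPFs of a time point and replicate come from 1 lysate, so a difference between roots that entered a lysate can appear in both. In whole roots, fewer cells of a type and less RNA per cell cannot be told apart.

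Depth ranged from 2019128 to 9861654 counts for RNAseq and from 1667094 to 12328304 counts for ribo-seq. Most members had few reads. The lowest RNAseq count of a member at 0 hr was 19 in replicate 1 and 14 in replicate 2. Fewer than 10 RNAseq counts were found for 4 and 11 members in the 6 hr libraries and for 8 and 14 members in the 12 hr libraries. In the ribo-seq libraries, fewer than 10 counts were found for 5 members in each 0 hr library, for 36 and 10 members in the 6 hr libraries and for 25 and 8 members in the 12 hr libraries.

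The RNA values that chose the members are given as a description. The scores ran from 1.63 to 5.23, with a median of 1.89. Just inside the limit, the members of ranks 98, 99 and 100 scored 1.629, 1.628 and 1.627, and the next genes scored 1.623, 1.620 and 1.619. The median member had 25.3 and 20.3 CPM of RNA at 0 hr, 7.71 and 8.30 CPM at 6 hr, and 7.27 and 5.59 CPM at 12 hr. The median of all 14008 genes stayed between 30.9 and 31.8 CPM in the same libraries. Mean RNA lay 2.55-fold below 0 hr at 6 hr in the median member (range 1.80 to 60.4) and 3.21-fold below at 12 hr (range 1.87 to 71.7). It was at least 2-fold below 0 hr in 90 members at 6 hr and in 96 at 12 hr, and at least 4-fold below in 22 and 34 members.

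A few genes supplied most of the set's reads. Added up, the members came to 6161 and 5748 CPM of RNA at 0 hr, 2272 and 2536 in the 6 hr libraries, and 2155 and 1829 in the 12 hr ones. The 10 members with the most reads held 56.1% of the 0 hr sum. Most of the difference in RNA was already present at 6 hr. The mean at 12 hr lay below that at 6 hr in 72 members, against 52.9% of all 14008 genes. Both 12 hr libraries were below both 6 hr libraries in 37 members (19.3% of all genes) and above both in 7 (14.4% of all genes). These orders are by CPM and also come from values that entered the score. In edgeR fits the RNA change at 12 against 6 hr was below 0 in 39 members with actin scaling (12.48% of all genes tested). With TMM scaling it was below 0 in 69 members (49.29%). The members' median log2 changes were 0.15 and −0.25, beside 0.45 and 0.01 for all genes, so the direction depended on the scaling. In the fit of RNA counts by edgeR with actin scaling, the adjusted p was under 0.05 for 3 members at 12 against 0 hr (0.0126% of all genes called lower) and for 1 at 6 against 0 hr (0.00422%), and with TMM scaling for 29 (0.152%) and 4 (0.0211%). Nothing is read from these counts, since the same values chose the members.

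**Figure D1:**
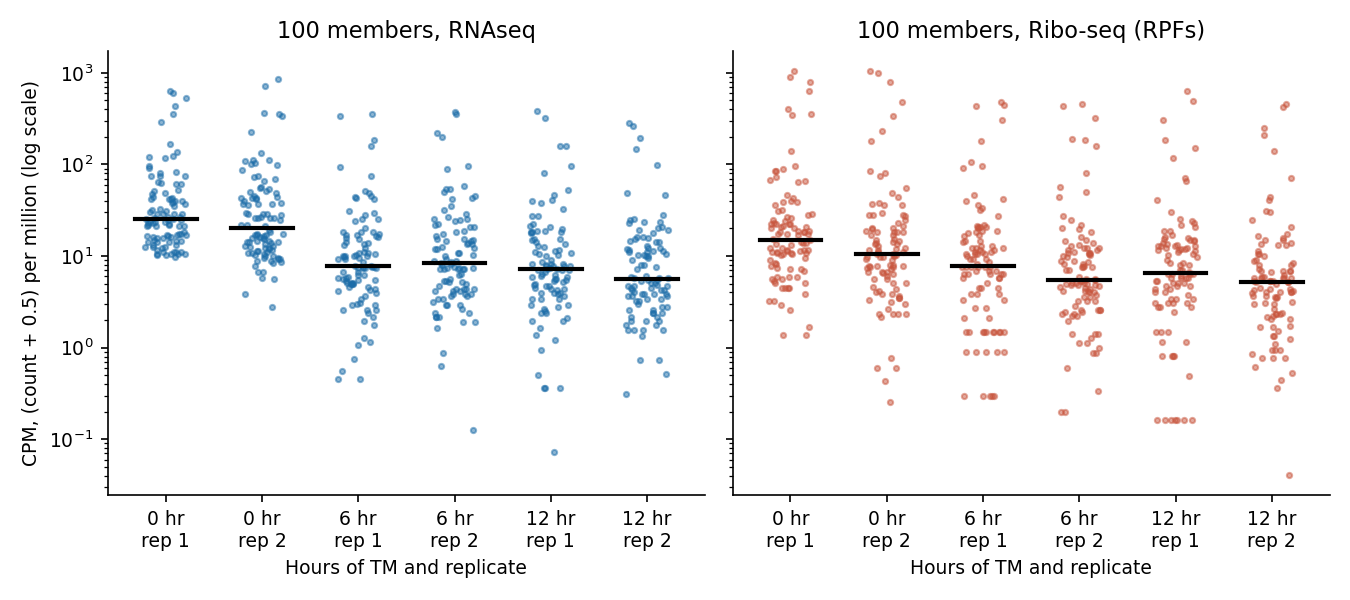
CPM of each of the 100 members in the 6 RNAseq libraries (left) and the 6 ribo-seq libraries (right), on a log scale, with 1 point per member and a bar at the median. The RNA medians are 25.3 and 20.3 CPM at 0 hr and 5.59 to 8.30 CPM later, and the RPF medians are 15.1 and 10.5 CPM at 0 hr and 5.15 to 7.80 CPM later.

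The footprints of most members were lower as well. The median member had 15.1 and 10.5 CPM of RPFs at 0 hr, 7.80 and 5.46 CPM in the 6 hr libraries, and 6.54 and 5.15 CPM in the 12 hr ones, while the median of all 14008 genes lay between 27.9 and 29.8 CPM. The members' RPF sum was 6527 and 5469 CPM at 0 hr, 3071 and 2595 CPM in the 6 hr libraries, and 2800 and 2207 CPM in the 12 hr ones, so the sums of the treated libraries all lay below those at 0 hr. Mean RPFs were below 0 hr in 85 of the 100 members at 6 hr and in 92 at 12 hr, against 53.4% and 52.8% of all genes. They were at least 2-fold below 0 hr in 46 members at 6 hr (2.23% of all genes) and in 54 at 12 hr (1.88% of all genes). In the median member mean RPFs lay 1.90-fold below 0 hr at 6 hr and 2.11-fold below at 12 hr.

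Replicate by replicate, the order that the score demands of RNA was also met by the footprints of 52 members, all of whose 6 and 12 hr RPF values lay below both 0 hr values. Of all 14008 genes, 7.09% had this order in RPFs. The opposite order, all treated libraries above both 0 hr libraries, occurred in 0 members and in 6.23% of all genes. Taken 1 time point at a time, both 6 hr RPF values were below both 0 hr values in 61 members (16.1% of all genes) and both 12 hr values in 64 (15.9% of all genes).

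This share was smaller at lower RNA scores. Among the 1619 genes whose RNA met the order, 21.2% met it in RPFs too. The share was 43% in the 100 genes that follow the members, 27.5% in the next 200, 22.5% in the next 400 and 12.6% in the last 819. Within the members it was met by 17 of the 25 with the highest scores, then by 13, 10 and 12 of 25. It was also met more often by members with more footprints. Of the 40 members under 10 CPM of RPFs at 0 hr, 11 met it (5.51% of all genes at that level), of the 47 between 10 and 50 CPM, 30 met it (7.01%), and of the 13 above 50 CPM, 11 met it (7.99%). With CPM rescaled to actin the order was met in RPFs by 49 members (3.14% of all genes), and with TMM scaling by 50 (6.65%). Where only 1 of the 0 hr ribo-seq libraries had to lie above the treated ones, more of all genes met it too: it was met by 59 members and 21.3% of all genes without 0 hr replicate 1, and by 75 members and 23.3% of all genes without 0 hr replicate 2.

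**Figure D2:**
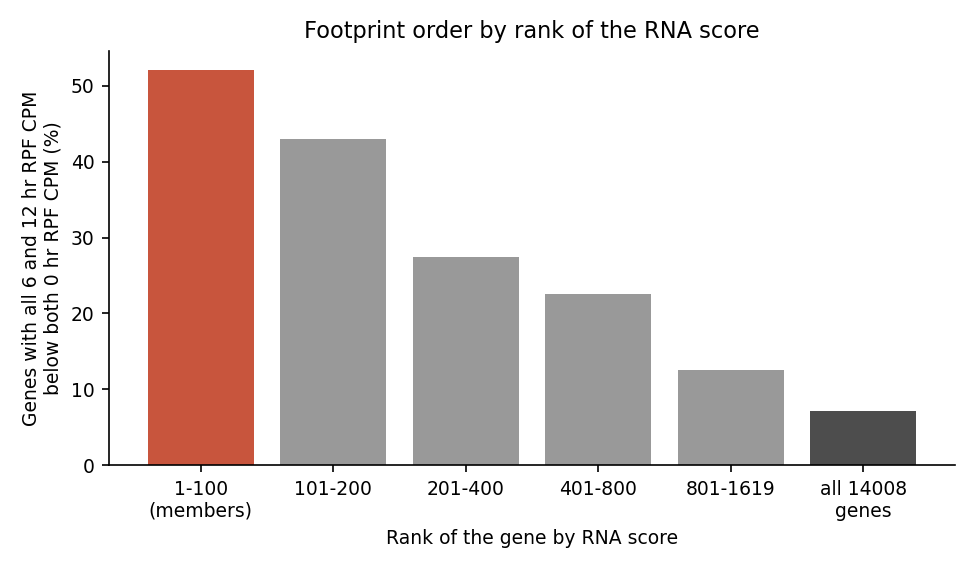
Percent of genes with every 6 and 12 hr RPF value below both 0 hr RPF values (vertical axis), for the members, for later ranks of the RNA score down to a score of 1, and for all 14008 genes. The values are 52% for the members, then 43%, 27.5%, 22.5% and 12.6%, and 7.09% for all genes.

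Footprint counts were tested across all genes with edgeR's quasi-likelihood test. Libraries were scaled to an actin gene. P-values were adjusted by Benjamini-Hochberg over all 20414 genes tested, and a gene was called at an adjusted p under 0.05. Enough footprints for the test were present in 95 members, and those of ranks 16, 23, 32, 79 and 84 had too few. At 12 against 0 hr, 11 of the 95 were called lower, where 0.142% of all genes tested were called lower. Called higher were 0 of the 95, beside 28 of all 20414 genes, so this 0 lies near the share of all genes. The fitted change was below 0 in 89 of the 95 (50.95% of all genes tested). Its median was −1.15 on the log2 scale against −0.01 for all genes tested. At an unadjusted p under 0.05, 43 members were lower (1.23% of all genes). At 6 against 0 hr, 6 members were called lower (0.206% of all genes called lower). Again 0 members were called higher, beside 13 of all 20414 genes. The median change was −1.24 against −0.29 for all genes, and 52 members were lower at an unadjusted p under 0.05 (3.11% of all genes). Both comparisons use the same 0 hr libraries.

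These calls depended on the scaling, on the spread estimate that went with it, and on single libraries. With TMM scaling 3 members were called lower at 12 hr, the ranks 1, 11 and 38 (0.0294% of all genes), and 0 at 6 hr (0% of all genes), while 50 and 46 members were lower at an unadjusted p under 0.05 (2.38% and 2.09% of all genes) and the medians were −1.07 and −0.99, with all genes near 0. Without 0 hr replicate 1, 3 members were called lower at 12 hr (0.0264% of all genes) and 0 at 6 hr (0%), and the medians were −0.43 and −0.53, beside 0.49 and 0.20 for all genes. Without 0 hr replicate 2, the calls were 20 (0.426% of all genes) and 35 (3.24%), and the medians were −1.71 and −1.73, beside −0.38 and −0.67 for all genes. Of the treated libraries, leaving out 12 hr replicate 1 left 2 calls at 12 hr (0.0131% of all genes) and leaving out 12 hr replicate 2 left 5 (0.0544%). Leaving out 6 hr replicate 1 left 2 calls at 6 hr (0.0265% of all genes) and leaving out 6 hr replicate 2 left 3 (0.0494%).

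Between 12 and 6 hr the footprints of 0 members were called changed, with actin scaling (0.049% of all genes called in either direction) and with TMM scaling (0% of all genes). DESeq2 and limma voom also called 0 members. Of all 20414 genes, DESeq2 with its own size factors called 7 lower and 2 higher, and voom 0 and 5. DESeq2 with actin factors called 0 and 0. With so few genes called, 0 members lies near the share of all genes. At an unadjusted p under 0.05 edgeR with actin scaling gave 1 member lower (0.127% of all genes) and 1 higher (1.94%), and with TMM scaling 7 lower (1.12%) and 1 higher (1.54%). Both 12 hr RPF values lay below both 6 hr values in 17 members (14% of all genes) and above both in 4 (15.5% of all genes).

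**Figure D3:**
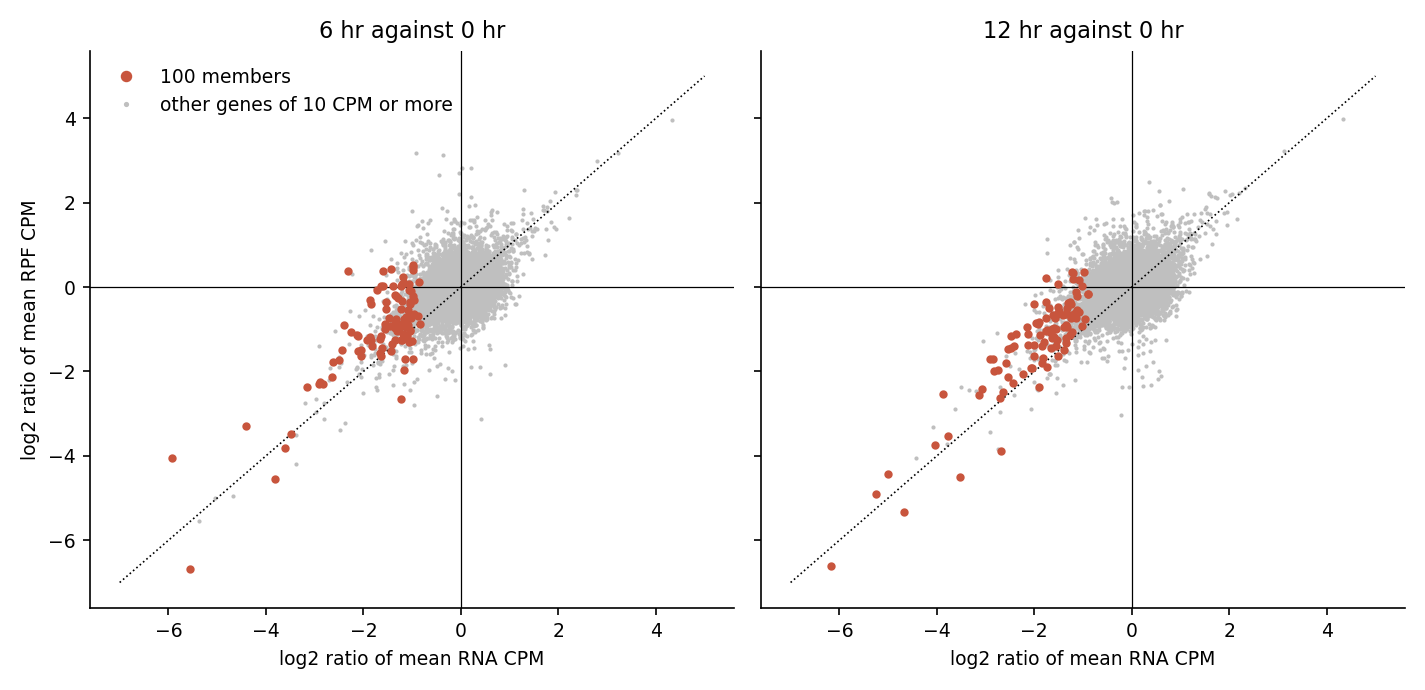
Log2 ratio of mean RPF CPM (vertical) against log2 ratio of mean RNA CPM (horizontal) at 6 against 0 hr and at 12 against 0 hr, with the members in red, the other genes of 10 CPM or more in grey, and a dotted line where both ratios are equal. All members lie left of 0 through their choice, and 85 of 100 at 6 hr and 92 of 100 at 12 hr lie below 0 in RPFs.

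Zm00001d036072 had the highest score. Its RNA was 23.0 and 26.6 CPM at 0 hr, 1.17 and 4.40 CPM at 6 hr, and 2.52 and 0.518 CPM at 12 hr. Its RPFs were 11.5 and 9.69 CPM at 0 hr, 1.5 and 2.60 CPM at 6 hr, and 1.15 and 0.446 CPM at 12 hr, from 37 and 56, 2 and 19, and 3 and 5 counts. Every treated library lay below both 0 hr libraries in both readouts. The log2 change of RPFs at 12 against 0 hr was −4.12 (SE 0.89, adjusted p = 0.00315 by edgeR with actin scaling, 0.0398 with TMM scaling), and at 6 against 0 hr it was −2.61 (SE 0.80) and was not called (adjusted p = 0.184). The 12 hr call was lost without either 12 hr library (adjusted p = 0.254 and 1).

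Zm00001d043731 followed in rank. Its RNA was 23.5 and 16.6 CPM at 0 hr, 2.99 and 3.40 CPM at 6 hr, and 2.37 and 3.83 CPM at 12 hr. Its RPFs were 5.96 and 6.77 CPM at 0 hr, 1.5 and 1.40 CPM at 6 hr, and 0.491 and 0.365 CPM at 12 hr. Its RNA values overlapped between 6 and 12 hr, whereas its 12 hr RPF values lay below both 6 hr values, at counts of 1 and 4 against 2 and 10. The log2 change of RPFs at 12 against 0 hr was −4.12 (SE 1.05, adjusted p = 0.0354 by edgeR with actin scaling). The call was lost with TMM scaling (adjusted p = 0.0712) and without any 1 of the 6 ribo-seq libraries (adjusted p from 0.0683 to 1).

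The member of rank 11 carried the most footprints of the set. Its RPFs were 1049 and 1043 CPM at 0 hr, 478 and 321 CPM at 6 hr, and 309 and 251 CPM at 12 hr. Its RNA was 294 and 358 CPM at 0 hr, 93.7 and 89.7 CPM at 6 hr, and 96.5 and 99.3 CPM at 12 hr. The duplicates of this gene were close together in both readouts except for its RPFs at 6 hr, and the treated libraries did not overlap with 0 hr. RPFs at 12 against 0 hr changed by −1.93 on the log2 scale (SE 0.44, adjusted p = 0.00712 by edgeR with actin scaling) or −1.88 (SE 0.25, adjusted p = 0.0118 with TMM scaling). At 6 against 0 hr the change was −1.70 (adjusted p = 0.0391 with actin scaling, 0.104 with TMM scaling).

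The members of ranks 38 and 71 had lower means at 12 hr than at 6 hr, though their RPF values at these times overlapped and neither was called at 12 against 6 hr. For rank 38 the RPFs were 73.8 and 75.2 CPM at 0 hr, 42.3 and 20.3 CPM at 6 hr, and 20.8 and 13.1 CPM at 12 hr, with a log2 change at 12 against 0 hr of −2.18 (SE 0.52, adjusted p = 0.0150 by edgeR with actin scaling, 0.0493 with TMM scaling). Its RNA was 82.5 and 108 CPM at 0 hr, 42.4 and 31.8 CPM at 6 hr, and 18.2 and 14.4 CPM at 12 hr. For rank 71 the RPFs were 406 and 482 CPM at 0 hr, 302 and 183 CPM at 6 hr, and 185 and 70.5 CPM at 12 hr, called lower at 12 hr with actin scaling (adjusted p = 0.0258 by edgeR) but not with TMM scaling (adjusted p = 0.217). The RNA of rank 71 was 168 and 227 CPM at 0 hr, 73.9 and 96.2 CPM at 6 hr, and 81.2 and 28.3 CPM at 12 hr, so that it also overlapped between 6 and 12 hr.

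**Figure D4:**
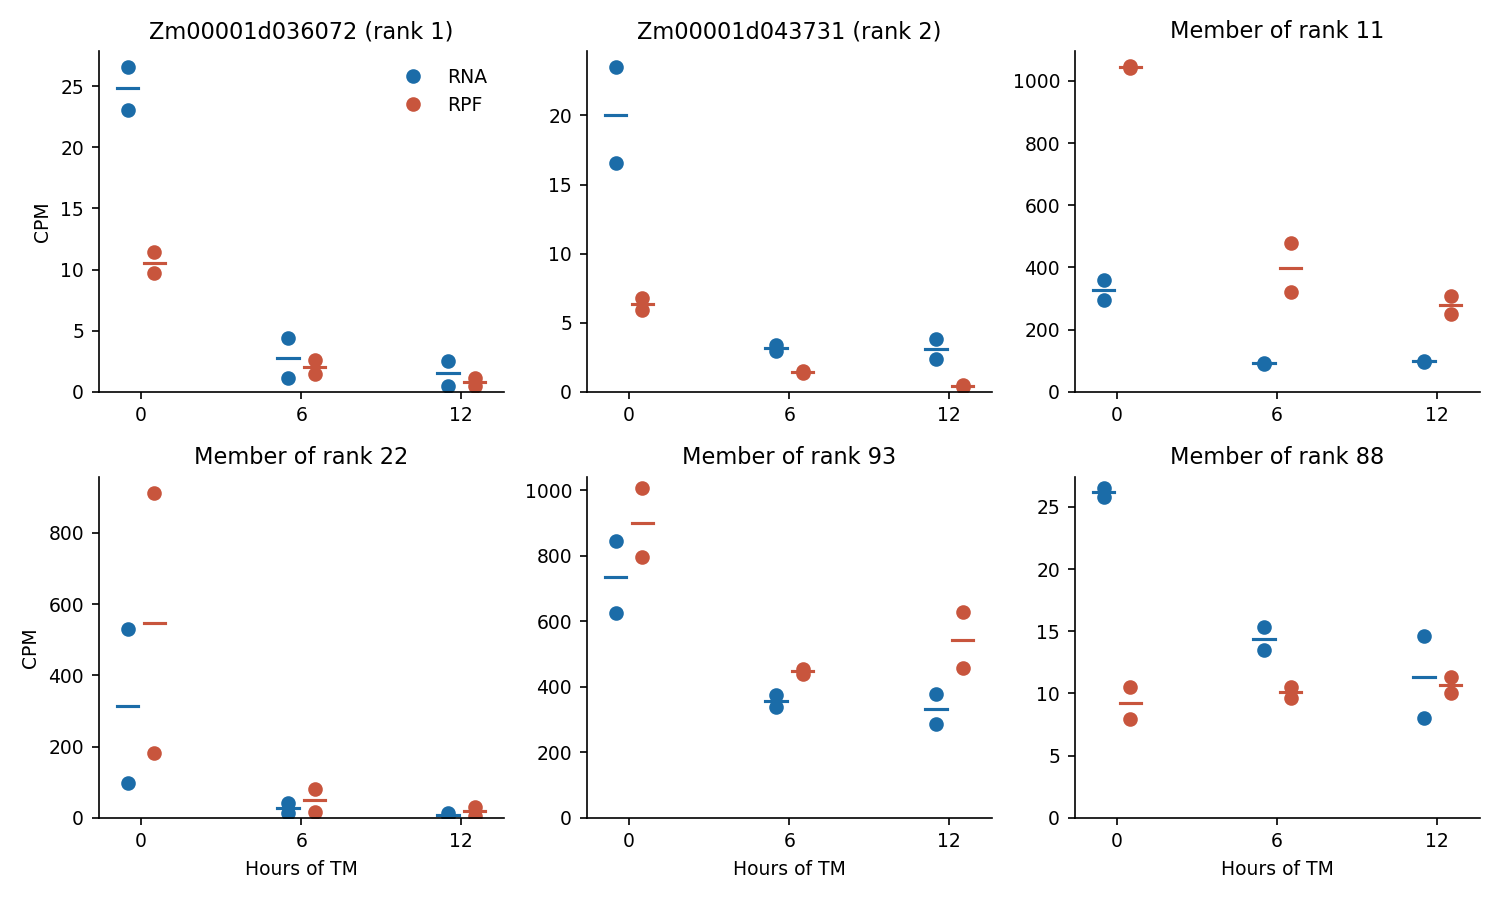
CPM of RNA (blue) and RPFs (red) in each replicate of 6 members against hours of TM, with a bar at the mean and a linear axis from 0. Ranks 1, 2 and 11 have close 0 hr duplicates that lie above every treated library, rank 22 has 0 hr duplicates of 912 and 181 CPM in RPFs, rank 93 has moderate changes, and the RPFs of rank 88 stay between 7.97 and 11.3 CPM.

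The lowest fitted RPF changes at 12 hr, in ranks 8, 22, 10 and 4, came from members whose 0 hr duplicates differed widely. For rank 8 the RPFs were 88.5 and 3.17 CPM at 0 hr, 0.300 and 0.599 CPM at 6 hr, and 0.164 and 0.771 CPM at 12 hr. Its RNA was 75.03 and 2.74 CPM at 0 hr, 0.761 and 0.880 CPM at 6 hr, and 0.360 and 0.725 CPM at 12 hr. Replicate 1 of 0 hr was 27.4-fold above replicate 2 in RNA and 27.9-fold above it in RPFs, and replicate 2 was still above all treated libraries. The log2 change of RPFs at 12 against 0 hr was −6.67 (SE 0.74, adjusted p = 3.80e-15 by edgeR with actin scaling) but was not called with TMM scaling (−6.29, SE 1.33, adjusted p = 0.152). The actin fit took its spread from all genes, so the gap between these duplicates hardly entered its SE and adjusted p.

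Rank 22 had RPFs of 912 and 181 CPM at 0 hr, 16.5 and 80.8 CPM at 6 hr, and 6.38 and 30.4 CPM at 12 hr, and RNA of 529 and 98.5 CPM, 13.2 and 42.4 CPM, and 4.24 and 12.3 CPM. In rank 10 the RPFs were 85.1 and 7.80 CPM at 0 hr, 1.5 and 2.46 CPM at 6 hr, and 0.818 and 3.53 CPM at 12 hr. For rank 4 they were 22.2 and 2.66, 0.900 and 0.866, and 0.164 and 0.933 CPM, and for rank 3 they were 18.5 and 7.29, 0.300 and 2.33, and 0.164 and 2.07 CPM. All 4 were called lower at both times with actin scaling and at neither with TMM scaling. The limit given for rank 8 holds for their actin calls too. Rank 5 was called at 12 hr with actin scaling, with RPFs of 66.8 and 28.4 CPM at 0 hr, 18.9 and 14.7 CPM at 6 hr, and 11.9 and 5.80 CPM at 12 hr, though its RNA duplicates at 0 hr were close, at 92.4 and 86.9 CPM.

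Uneven 0 hr duplicates were also found in other members, more often in RPFs than in RNA. RNA of 0 hr replicate 1 was at least 2-fold above replicate 2 in 12 members (6.24% of all 14008 genes), and the reverse held in 1 (4.16% of all genes). The 0 hr RNA duplicates lay within 2-fold in 87 members and in 12551 of the 14008 genes. RPFs of 0 hr replicate 1 were at least 2-fold above replicate 2 in 30 members (6.33% of all genes), and the reverse held in 5 (2.67% of all genes). Of the 12 members with the uneven RNA, 11 were uneven by at least 2-fold in RPFs too, where the share among all genes with such RNA was 34.8%. The order of the score was met in RPFs by 8 of these 12 (9.38% of all genes with such RNA), and by 44 of the 87 members whose 0 hr RNA duplicates lay within 2-fold (50.6%, against 6.97% of all such genes). Across the 100 members the log2 ratio of replicate 1 to 2 in RNA had a Pearson correlation with that in RPFs of 0.737 at 0 hr, 0.162 at 6 hr and 0.532 at 12 hr (Spearman 0.588, 0.187 and 0.592), and across all 14008 genes the Pearson values were 0.421, 0.0156 and 0.443. These points share lysates and library depth. The part of the 0 hr difference in the members' changes was not tested beyond leaving out each 0 hr library.

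The members with the most RNA reads at 0 hr were ranks 93, 91, 86 and 95. Their RPF changes were smaller, and their 0 hr RPF duplicates closer, than in ranks 8, 22, 10 and 4, which had the lowest fitted RPF changes at 12 hr. Rank 86 was neither smaller in change nor closer in duplicates than the median member. With actin scaling its log2 RPF change at 12 against 0 hr was −1.29, beside a member median of −1.15. Its 0 hr RPFs were 1.53-fold higher in replicate 1 than in replicate 2, beside a median ratio of 1.34. Rank 93 had the highest RNA CPM, with 627 and 846 CPM at 0 hr, 338 and 376 CPM at 6 hr, and 380 and 286 CPM at 12 hr, and RPFs of 796 and 1006, 440 and 454, and 629 and 458 CPM. Rank 91 had RPFs of 627 and 793 CPM at 0 hr, 444 and 432 CPM at 6 hr, and 498 and 427 CPM at 12 hr. Neither gene overlapped between 0 hr and the treated libraries in RPFs, and neither was called in any of the 2 comparisons with 0 hr (rank 93 at 12 against 0 hr, log2 change −0.71, SE 0.43, adjusted p = 1.00 by edgeR). Rank 86 had RPFs of 358 and 234 CPM at 0 hr, 107 and 159 CPM at 6 hr, and 118 and 140 CPM at 12 hr, and rank 95 had 345 and 334, 182 and 190, and 150 and 208 CPM. Both lay below 0 hr in every treated library and neither was called.

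Not every member had fewer footprints. The RPF values did not lie wholly below those of 0 hr in 39 members at 6 hr and in 36 at 12 hr. Of all 14008 genes, 16.1% at 6 hr and 15.9% at 12 hr did lie wholly below. In 27 members the values lay wholly below at neither time. That count was not made for all genes, so nothing is read from it. Rank 88 had RPFs of 10.5 and 7.97 CPM at 0 hr, 10.5 and 9.66 CPM at 6 hr, and 11.3 and 10.0 CPM at 12 hr, beside RNA of 26.5 and 25.8, 15.4 and 13.5, and 7.99 and 14.6 CPM. Its RPF values at the 3 times overlapped, and the fitted log2 change at 12 against 0 hr was 0.18 (SE 0.61, adjusted p = 1.00 by edgeR). Rank 43 had RPFs of 84.8 and 54.8 CPM at 0 hr, 92.1 and 50.3 CPM at 6 hr, and 66.3 and 40.5 CPM at 12 hr, beside RNA of 125 and 103, 44.2 and 53.4, and 46.7 and 45.9 CPM. It was named after its values were seen, as the member above 50 CPM of RPFs whose 6 hr mean lay nearest to that at 0 hr. The fitted RPF change at 12 hr was above 0 in 6 members, where 50.95% of all genes tested lay below 0. The highest was 0.36 (SE 0.87) in rank 54, which had 3.21 and 2.31 CPM of RPFs at 0 hr and 4.09 and 2.96 CPM at 12 hr. None of the 6 was called.

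Rank 16 was at the low end. Its RPF counts were 24 and 4 at 0 hr and 0 in both 12 hr libraries, which is at least 6.74-fold lower at a floor of 3 counts per library. The bound rests on 0 hr replicate 1, which had 7.49 CPM beside 0.772 CPM in replicate 2: with replicate 1 alone it is 12.2-fold and with replicate 2 alone 1.26-fold. The gene was not tested because of its low counts. These bounds cover counting error at 12 hr only, and leave out that of the 24 and 4 counts at 0 hr.

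Footprints per RNA, the ratio of RPF to RNA CPM in 1 lysate, do not depend on gene length. At 0 hr the median of the members was 0.572 and 0.468, against 0.961 and 0.936 for all 14008 genes, so their mRNAs carried fewer footprints per read than most. At 6 hr it was 0.865 and 0.674, and at 12 hr 0.924 and 0.782, with all genes between 0.924 and 0.978. The RPF ratio to 0 hr was larger than the RNA ratio in 85 members at 6 hr (48% of all genes) and in 92 at 12 hr (51.9% of all genes). Choice by RNA favours both patterns, because a gene whose 0 hr RNA was measured too high, or whose later RNA was measured too low, scores higher, so no test was made of the ratio. Members kept much of their order in this ratio between times: across the 100, its log2 at 6 hr had a Pearson correlation of 0.754 with that at 0 hr and its log2 at 12 hr one of 0.837 (Spearman 0.740 and 0.821), against 0.898 and 0.896 across all genes.

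**Figure D5:**
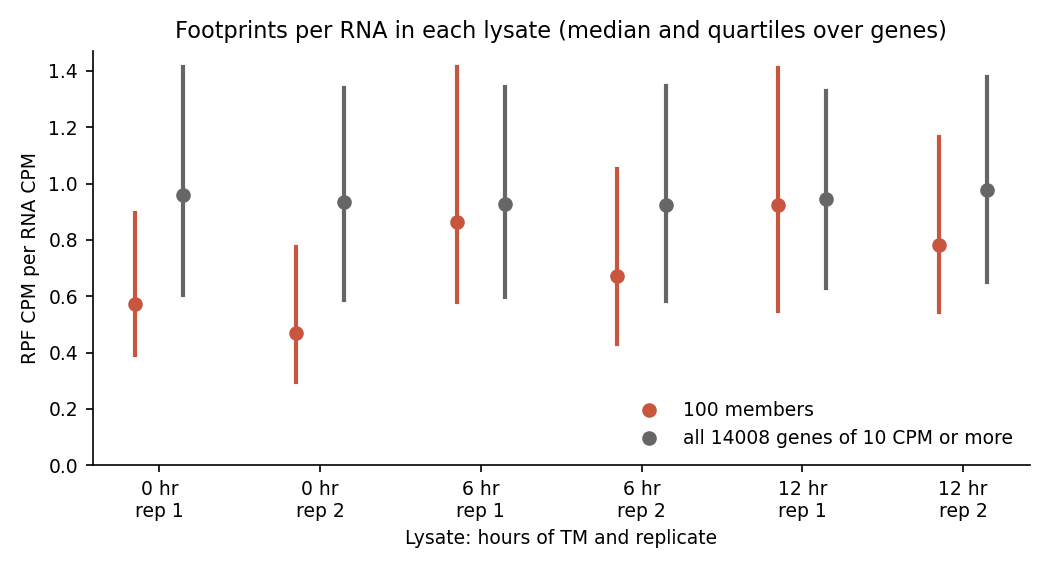
RPF CPM per RNA CPM in each of the 6 lysates, as the median (point) and quartiles (line) over the 100 members (red) and over all 14008 genes of 10 CPM or more (grey). The member medians are 0.572 and 0.468 at 0 hr and 0.674 to 0.924 later, and those of all genes stay between 0.924 and 0.978.

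Across the members the log2 change of mean RPFs had a Pearson correlation with that of mean RNA of 0.793 at 6 hr and 0.902 at 12 hr (Spearman 0.531 and 0.805), beside 0.493 and 0.512 (Spearman 0.312 and 0.325) across all 14008 genes. With the RNA of 1 replicate set against the RPFs of the other, the Pearson values were 0.215 and 0.273 for 6 hr, and 0.232 and 0.13 for 12 hr, beside 0.162 and 0.116, and −0.00226 and 0.00945, across all genes. The RNA change chose the members. These are correlations across genes, which are not independent replicates.

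Applied to RPFs in place of RNA, the same score could be formed for 12470 genes with at least 10 CPM of RPFs at 0 hr, of which 60 were members. The 100 highest RPF scores, down to 1.34, held 30 of these members, and the 10 highest held 7. The top RPF score was 4.12 and belonged to the member of rank 8.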

How the data were processed

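Per the labels and the study's methods, reads were trimmed with cutadapt 1.16 and aligned by Bowtie 1.2 against the coding sequences in B73 RefGen_v4, and the authors deposited unnormalized counts for each gene. A read that fitted several genes was counted a single time, and genes with near-identical copies may therefore share counts. No column of values was left unused (0 columns). Groups came from the sample titles. The members, lists and tests were chosen with earlier results of these data known. Members were those with the 100 highest scores, and genes were named by the highest scores, the highest 0 hr RNA, the lowest fitted RPF changes among those called, the highest RPF changes and the edge of the rule, with identifiers limited because no table used here pairs them with names. Planned gene lists, tissue markers and sequence features were therefore not run. RPF counts of all time points were fitted together with edgeR 4.0.16 in R 4.3.3, scaled, as in the study's methods, by the counts of actin (59 to 445 per library), which are few enough to make the scaling itself uncertain. In that fit the spread estimate relied wholly on all genes and hardly on a gene's own duplicates, with a biological coefficient of variation of 0.367 (0.251 with TMM). RNA was fitted the same way for description only. Alternatives were scaling by TMM, by alpha tubulin 3 or by the total count, DESeq2 1.42.0, limma 3.58.1 voom, other filters on low counts, a fit of only the times compared, each library left out and the replicate number as a block. Of these fits, only edgeR on footprints was run on simulated counts. Actin was simulated without noise, so that run cannot show the uncertainty of the actin scaling. The study calls the replicates biological. With 2 per group, an exact test on a single gene cannot reach 0.05, and each value is given per library.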

Additional observations from a re-analysis of the deposited data

How the results depend on the processing

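Each count of members called lower against 0 hr stands here with the percent of all genes called lower in the same fit. The number with lower RPFs at 12 against 0 hr, 11 with actin scaling (0.142%), was 5 (0.111%) when 10 counts in every library were required (59 members tested), 4 (0.0392%) by DESeq2 with actin factors, 7 (0.0765%) when only the times compared were fitted, and 3 (0.0294%) with TMM or total count scaling. Leaving out 1 library each gave 2 (0.0131%) to 20 (0.426%). At 6 against 0 hr, 6 (0.206%) became 1 (0.152%) with that count minimum, 1 (0.0098%) by DESeq2 with actin factors, and 0 (0%) with TMM or total count scaling, and 0 (0%) to 35 (3.24%) with 1 library left out. With the replicate number as a block the counts were 9 (0.0735%) at 12 hr and 5 (0.0833%) at 6 hr, and with the replicate block and TMM scaling, chosen after seeing the data, 8 (0.0833%) and 1 (0.0098%). The numbers were not taken to pair the libraries, since same-numbered ribo-seq libraries had correlated deviations of 0.17 (0 and 6 hr), −0.01 (0 and 12 hr) and 0.27 (6 and 12 hr). At 12 and 6 hr, DESeq2 with its own size factors gave 12 (0.132%) and 4 (0.0441%), voom 10 (0.098%) and 4 (0.0588%), no filter 12 (0.11%) and 5 (0.141%), and alpha tubulin 3 scaling 8 (0.0686%) and 5 (0.108%). The median log2 RPF change stayed below 0 in every alternative and lay between −0.53 and −1.73 at 6 hr and between −0.43 and −1.71 at 12 hr with 1 library left out. The members themselves depended on the 0 hr libraries: the rule chose 30 of the 100 without 0 hr replicate 2 and 58 when 0 hr replicate 1 was left out. Leaving out a 6 hr RNAseq library gave 84 (replicate 1) or 67 (replicate 2), and a 12 hr one 86 or 78. The rule chose 70 with actin scaling and 96 with TMM. Without 1 ribo-seq library each, the order of the score was met in RPFs by 54 to 75 members, and by 8.78% to 23.3% of all genes. Counts of members called between 12 and 6 hr were 0 in every alternative. At most 7 of all genes were called lower (DESeq2 with its own size factors) and at most 12 higher (alpha tubulin 3 scaling), each of 20414 tested. These counts of 0 therefore lie near the share of all genes.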
